A study of Mus musculus with 12 samples.

Results

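The AP-1 family of transcription factors was examined in cultured mouse oligodendrocyte precursor cells (OPCs). The 10 members were the genes Jun, Junb and Jund, Fos, Fosb, Fosl1 and Fosl2, and Atf3, Batf2 and Batf3. They were taken by symbol from both expression tables, which held 45563 symbols used once, and 10 of 10 were found. The list was chosen by function and by FPKM values of these libraries, with no contrast or threshold stated, so the share of members past a test describes the genes that were picked and is not evidence about the family as a whole. AP-1 is a dimer of basic leucine zipper (bZIP) proteins. Jun proteins can pair with each other, whereas Fos proteins need a Jun partner to bind DNA, and Atf3 and the Batf proteins pair with Jun as well. Many of these genes are immediate early genes, transcribed within minutes of growth factor, stress or cytokine signals, and their products are phosphorylated by MAP kinases such as JNK and ERK.

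The OPCs came from cerebral cortices of pups labeled C57BL/6, either WT or labeled as TNFR2-/-, a germline deletion. They were pulled out with beads against PDGFRα, grown with PDGF-AA and FGF2 for 3 days in vitro, and then given a mixture of TNF, IFNγ and IL1β at 25 ng/mL each (St) or vehicle (NS, non-stimulated) for 3 h before RNA was sequenced. Each of the 4 groups (WT NS, WT St, TNFR2-/- NS and TNFR2-/- St) had 3 libraries, numbered 2, 3 and 4 in WT and 2, 4 and 5 in TNFR2-/-. A germline deletion is carried by every cell from conception, so as labeled the model is one of lifelong loss and not of loss in OPCs alone. The labels give no animal for a library, and NS and St libraries that share a number within a genotype deviated from their group means together (r from 0.338 to 0.649 over 13554 genes, against -0.455 to 0.088 for other numbers). They are treated here as libraries of one culture. Numbers shared between WT and TNFR2-/- did not pair in this way (r from -0.0553 to 0.204). Nothing in the labels says whether the numbers stand for separate animals, so p-values measure the spread between these libraries.

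Library totals recovered from the tables ranged from 26886878 to 30335265 read pairs. The 8 OPC markers summed to between 6546 and 9275 read pairs per 1000000 (RPM) in every library, and microglial markers to between 9.94 and 12.9 RPM. Tnfrsf1b encodes TNFR2 itself. Its reads numbered 12 to 24 per WT NS library and 61 to 145 per WT St library, but 213 to 346 in libraries labeled TNFR2-/- NS and 282 to 356 in those labeled TNFR2-/- St. That goes against the label. The tables do not show in which exons these reads lie, so the name TNFR2-/- stands below for what the libraries are labeled, and every direction between genotypes rests on those labels. Astrocyte markers also moved with the label: they summed to 1602 to 1940 RPM in WT and 2390 to 3953 RPM in TNFR2-/- libraries, with 7 of 7 markers higher in TNFR2-/- in both conditions. In bulk RNA, fewer cells of a type and less RNA per cell cannot be told apart.

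The genes lie on 7 chromosomes of GRCm38. Jun is at chr4:95049034-95052222 on the minus strand, Fos at chr12:85473890-85477273 on the plus strand and Fosb at chr7:19302696-19310051 on the minus strand. Junb (chr8:84974484-84978718) and Jund (chr8:70698949-70700616) share a chromosome but lie apart by 14273867 bases. Fosl1 is at chr19:5447547-5455946, Batf2 at chr19:6140983-6172476 and Fosl2 at chr5:32135801-32157842. Batf3 (chr1:191097847-191108945) and Atf3 (chr1:191170296-191218039) are neighbors, separated by 61350 bases with 1 protein-coding gene between them. Reads of some members may include those of an overlapping gene on the other strand, since the strand setting of the counting is not given in the sources used here. In the annotation, 1163 of the 2033 exon bases of Fosl1 are shared with Ccdc85b, 877 of the 1668 of Jund with the antisense gene Gm11175, 232 of the 3189 of Jun with the antisense gene Junos and 173 of the 2301 of Junb with Prdx2. Batf2 shares 51 of 2522 exon bases with other genes, and the remaining members share none.

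The 250 bases before the start of each gene in RefSeq (GRCm38.p6) were searched on both strands for sites through which these genes are commonly switched on, and 8 of 10 members (all but Fosl1 and Batf2) had a window. The windows of 4 genes are shown because their transcripts carry the comparisons below: Fos, Jun and Fosb for the difference between genotypes without cytokines, and Junb for the response to cytokines. Capitals mark every match to the letters searched.

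Fos, chr12:85473640-85473889, plus strand: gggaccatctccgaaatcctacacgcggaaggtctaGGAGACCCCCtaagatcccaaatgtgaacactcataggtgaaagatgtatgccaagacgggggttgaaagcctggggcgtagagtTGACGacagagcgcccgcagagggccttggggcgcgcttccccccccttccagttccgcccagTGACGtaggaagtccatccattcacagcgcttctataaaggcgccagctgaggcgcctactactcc
Jun, chr4:95052223-95052472, minus strand: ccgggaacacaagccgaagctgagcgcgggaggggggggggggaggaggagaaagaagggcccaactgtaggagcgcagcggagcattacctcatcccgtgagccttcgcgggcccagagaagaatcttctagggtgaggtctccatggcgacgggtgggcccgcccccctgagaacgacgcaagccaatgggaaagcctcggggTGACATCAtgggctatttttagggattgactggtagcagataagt
Fosb, chr7:19310046-19310295, minus strand: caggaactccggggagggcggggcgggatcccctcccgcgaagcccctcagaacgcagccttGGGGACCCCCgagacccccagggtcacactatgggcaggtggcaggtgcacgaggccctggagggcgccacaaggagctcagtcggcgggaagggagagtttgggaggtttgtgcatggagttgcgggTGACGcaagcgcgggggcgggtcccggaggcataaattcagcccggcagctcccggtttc
Junb, chr8:84978749-84978998, minus strand: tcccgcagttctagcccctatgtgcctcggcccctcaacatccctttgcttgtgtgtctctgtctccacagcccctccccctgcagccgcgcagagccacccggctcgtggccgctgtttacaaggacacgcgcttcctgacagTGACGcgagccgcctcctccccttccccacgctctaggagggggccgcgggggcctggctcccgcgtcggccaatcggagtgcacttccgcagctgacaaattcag

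The core of the cyclic AMP response element (CRE; TGACG), which CREB and ATF proteins bind, was present in the windows of Fos, Fosb, Junb and Atf3, that is 4 of 8, against 17.8% of 32851 windows of the same length in the table. In Fos it occurred 129 and 66 bases before the start. A CRE-spaced site (TGANNTCA) occurred in Jun and Jund, 45 and 61 bases before the start, against 11.9% of all windows. The κB site, bound by NF-κB, was found in Fos, Fosb and Fosl2, against 3.9% of windows. Batf3 held the only GAS (TTCNNNGAA, the gamma-activated sequence), as TTCCACGAA, against 7.02% of windows, and Fosl2 the only interferon-stimulated response element, against 2.98%. The AP-1 site itself (TGANTCA) and the CArG box of serum response factor had no match in these 8 windows, against 6.75% and 1.47% of all windows. The RefSeq start used here coincides with the annotated gene start for Fos and Jun and lies within 30 bases of it for Fosb and Junb, but differs by 567 bases for Batf3, 671 for Fosl2, 1210 for Jund and 34706 for Atf3. These are matches of letters in one window per gene, not sites shown to be used.

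To compare levels between members, reads were expressed as RPM per kb of annotated exon. Jun was the most abundant member in each of the 4 groups. Per kb, it stood at 240.2 in WT NS, 123 in TNFR2-/- NS, 361 in WT St and 295 in TNFR2-/- St, and made up 60.0%, 53.0%, 49.7% and 44.2% of the 10 members' sum. Jund, generally a constitutive member, came next in NS cells, at 44.4 RPM per kb in WT and 39.9 in TNFR2-/-, and its libraries did not overlap with those of the gene below it. In St cells the second place was taken by Junb, with 94.1 RPM per kb in WT and 98.4 in TNFR2-/-, ahead of Jund in every library. Junb supplied 5.64% of the sum in WT NS and 12.97% in WT St, and 6.00% and 14.8% in the corresponding TNFR2-/- groups. Fosl1, Fos, Junb and Fosl2 formed a middle tier in WT NS cells (20.0 to 28.8 RPM per kb) in which neighbors in the order overlapped, as did Fosl1, Junb, Fosl2 and Fos in TNFR2-/- NS cells (11.3 to 22.5). Batf2 was the least abundant member without cytokines in both genotypes, and Fosb was the least abundant with them, at 5.28 RPM per kb in WT St and 1.99 in TNFR2-/- St. The sum over all members was 400.2 ± 67.1 (SD, n = 3) RPM per kb in WT NS, 232 ± 70.8 in TNFR2-/- NS, 726 ± 53.8 in WT St and 667 ± 38.6 in TNFR2-/- St. It was higher with cytokines than without in 3 of 3 cultures of each genotype, and the TNFR2-/- NS libraries (164 to 306) lay below all WT NS libraries (325 to 455).

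**Figure D1:**
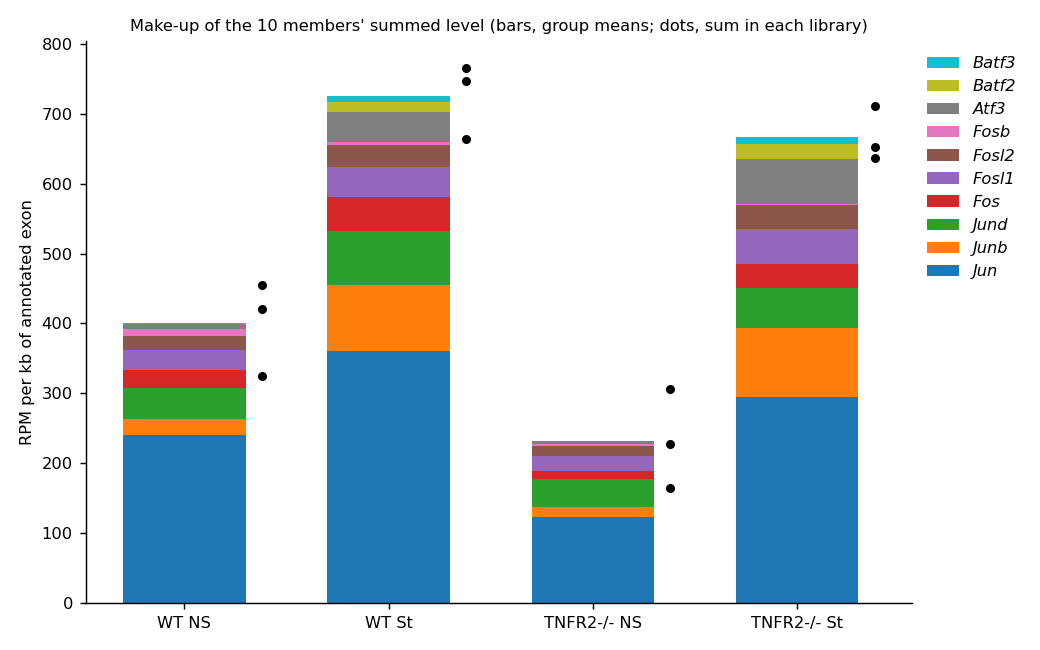
Stacked bars give the group means of the 10 members in RPM per kb of annotated exon for WT NS, WT St, TNFR2-/- NS and TNFR2-/- St (n = 3 each), and dots give the sum in each library. Jun is the widest segment of each bar, the Junb and Atf3 segments widen with cytokines, and the TNFR2-/- NS libraries (164 to 306) have the lowest sums.

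The first comparison asked how WT OPCs respond to 3 h of TNF, IFNγ and IL1β. Of the 10 members, 6 were upregulated (Batf2, Atf3, Junb, Batf3, Fos and Jund) and 0 were downregulated. A call needed 3 things in limma: an adjusted p (Benjamini-Hochberg, 18081 genes) no greater than 0.05, a change of 1.5-fold or more, and 1 FPKM or more on average. Over all genes tested, 7.53% were called, 4.58% higher and 2.95% lower. The members' median log2 fold change was 0.84, against -0.05 over all genes tested. In the fit with the culture as a block, 10 of 10 were called (8.79% of all genes), 9 of them higher and Fosb lower. St libraries lay above all NS libraries for 9 members (13.7% of all genes did so) and below them for Fosb (24%). The 5 neuronal markers summed to 106 to 118 RPM in WT NS and 429 to 458 RPM in WT St, but only Tubb3 among them was called higher (3.06 ± 0.18), Snap25 was called lower (-0.97 ± 0.23, adjusted p = 0.0154) and 3 were not called. OPC markers summed to 7975 to 9275 and 6546 to 7485 RPM. Their part in the result was not tested. Log2 fold changes below are on the log2(FPKM + 0.5) scale and are given ± SE, and levels of one gene are given in RPM for libraries 2, 3 and 4 in that order.

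Among the Jun genes, Junb showed the steepest rise. It encodes a Jun protein induced by many cytokines. Its level was 43.4, 55.2 and 57.2 RPM in WT NS and 203, 218 and 229 RPM in WT St libraries, a log2 fold change of 2.06 ± 0.23 (limma adjusted p = 0.000117). The groups were far apart, and no St library was below 3.95 times its own NS partner. Jund went from 68.2, 74.5 and 79.4 to 116, 135 and 136 RPM (log2 fold change 0.79 ± 0.11, adjusted p = 0.000789). Jun, the c-Jun gene and main partner of the Fos proteins, was at 617, 902 and 779 RPM in WT NS and 1053, 1241 and 1159 in WT St. The groups did not overlap and all 3 cultures rose, by 1.37 to 1.71 times, but the log2 fold change of 0.60 ± 0.23 did not pass (adjusted p = 0.121, and 0.0158 with the culture block).

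Among the Fos genes the direction was mixed. Fos, the prototype immediate early gene, was at 48.7, 68.7 and 69.1 RPM in WT NS and 104, 122 and 115 RPM in WT St, a log2 fold change of 0.89 ± 0.23 (adjusted p = 0.0219, and 0.000262 with the culture block). This call was lost when WT NS replicate 2 or either of WT St replicates 3 and 4 was left out (adjusted p up to 0.0873 over the alternatives tried), although the groups did not overlap. Fosb, a close relative of Fos, moved the other way. Its level was 42.4, 76.8 and 74.8 RPM in WT NS and 24.1, 39.4 and 35.4 in WT St, so that each culture was at 0.474 to 0.569 times its NS partner. The log2 fold change of -0.95 ± 0.67 did not pass without the block (adjusted p = 0.427) and did with it (adjusted p = 0.0177). Fosl1 (Fra-1) and Fosl2 (Fra-2), Fos relatives without the strong activation domain of Fos, differed by 0.60 ± 0.20 and 0.63 ± 0.25 on the log2 scale, below the adjusted threshold (adjusted p = 0.0676 and 0.125) and past it with the block (0.00517 and 0.0307). Both were higher in 3 of 3 cultures, Fosl1 by 1.33 to 1.78 times and Fosl2 by 1.46 to 1.64 times. Of these, Fosl1 was called without WT NS replicate 4 or TNFR2-/- NS replicate 5, Fosl2 without TNFR2-/- NS replicate 5, and Jun without TNFR2-/- NS replicate 4. The Fosl1 value includes reads that could belong to Ccdc85b.

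The ATF and BATF members gave the largest changes. Atf3, a stress-induced factor that often acts as a repressor, was at 10.5, 16.1 and 16.7 RPM in WT NS and 86.7, 86.5 and 102 RPM in WT St (log2 fold change 2.45 ± 0.22, adjusted p = 2.27e-05). By voom on the recovered reads its log2 fold change was 2.70 ± 0.24. Batf3, known for its role in dendritic cell development, was at 1.37, 1.19 and 1.001 RPM in WT NS and 12.8, 12.9 and 14.3 RPM in WT St. Its means differed 11.3-fold. Because its deposited FPKM lie near the pseudocount, the log2 fold change of 1.98 ± 0.09 (adjusted p = 1.59e-07) understates this, and the value from voom on the recovered reads was 3.48 ± 0.17. Batf2, an interferon-inducible factor that works with IRF1, had 1, 0 and 1 reads in the WT NS libraries and 34.5, 38.6 and 39.0 RPM in WT St. Summed over the 3 libraries this was 2 against 3372 reads, a ratio of 1624 with an exact 95% interval from 449 to 13416 that covers counting error only. The log2 fold change of 4.73 ± 0.23 (adjusted p = 2.03e-07) is bounded by the pseudocount.

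**Figure D2:**
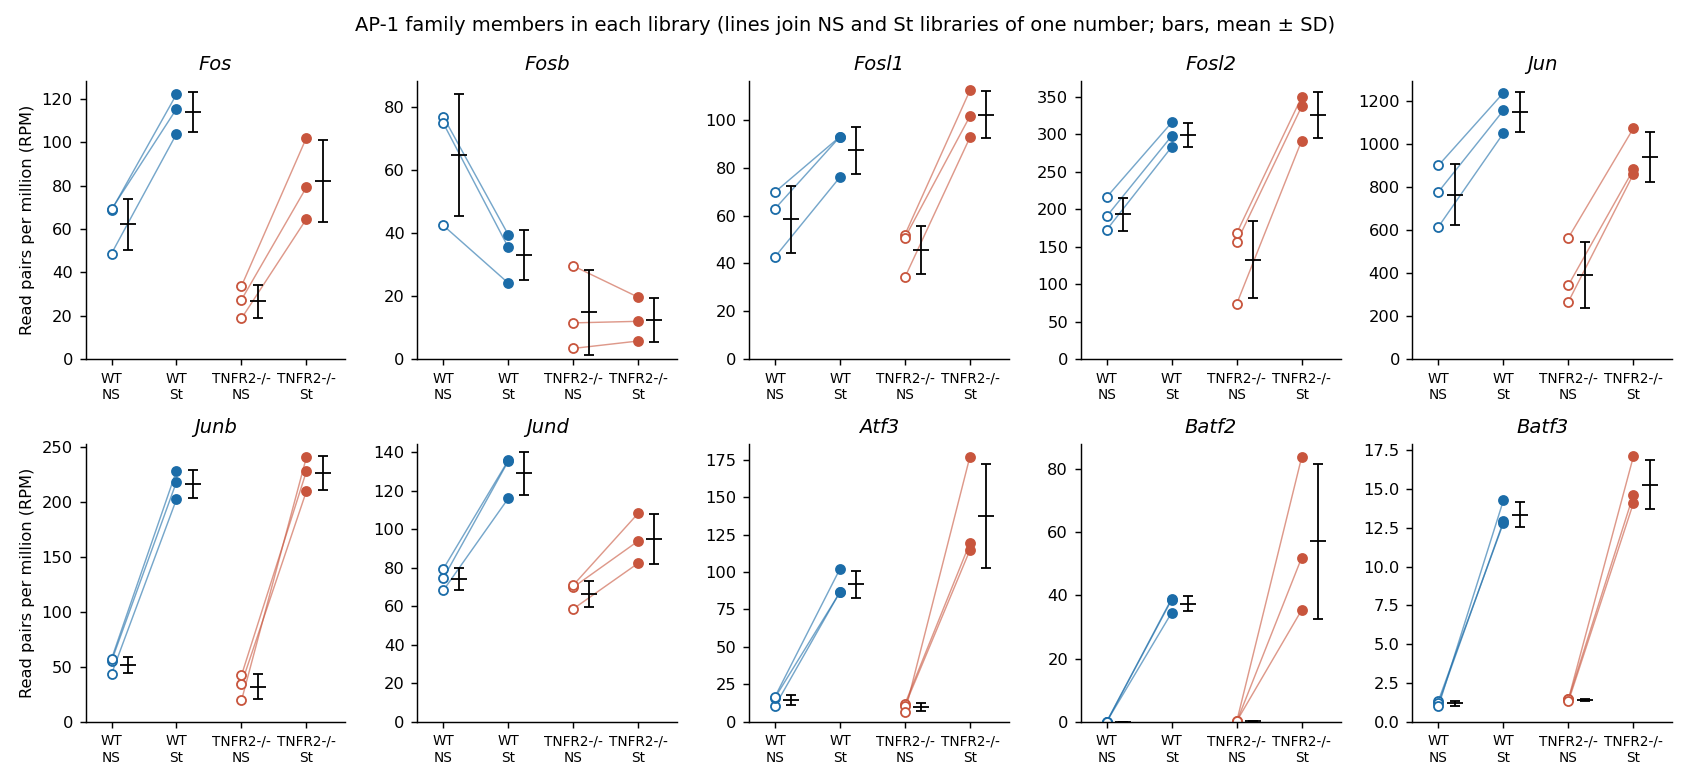
Each panel gives one member in RPM on its own linear axis, with 1 point per library (open, NS; filled, St; blue, WT; red, labeled TNFR2-/-), a line joining NS and St libraries of the same number, and the mean ± SD beside each group (n = 3). St points lie above NS points for every gene but Fosb, and the red NS points of Fos, Fosb and Jun lie below the blue ones.

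The same question was asked of OPCs labeled TNFR2-/-. Of the 10 members, 8 were upregulated (Batf2, Atf3, Junb, Batf3, Fos, Fosl2, Jun and Fosl1) and 0 downregulated, against 5.41% and 4.68% of all genes tested (10.1% in all). The neuronal marker sum was 96.3 to 124 RPM in NS and 462 to 544 RPM in St libraries, again with only Tubb3 of the 5 called higher (3.18 ± 0.18) and Snap25 called lower (-0.94 ± 0.23, adjusted p = 0.0129), and its part in the result was not tested. The members' median log2 fold change was 1.51, against -0.11 over all genes. These libraries share none with the WT comparison. St libraries lay above all NS libraries for 9 members (12.7% of all genes), and for none were they below (24.7%). All values here are for libraries 2, 4 and 5, in that order, and the block changed no call.

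Junb rose from 34.6, 42.2 and 19.4 RPM to 210.1, 228 and 241 RPM (log2 fold change 2.88 ± 0.23, adjusted p = 7.15e-06). Library 5 was the lowest of the NS group and the highest of the St group. Jun went from 345, 566 and 268 RPM to 884, 1076 and 862 RPM (log2 fold change 1.32 ± 0.23, adjusted p = 0.00219). Jund, by contrast, moved from 69.9, 71.0 and 58.6 to 93.9, 108 and 82.4 RPM. Its log2 fold change of 0.50 ± 0.11 had an adjusted p of 0.00907 but was below the fold change required for a call, which it reached without TNFR2-/- St replicate 5.

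Fos rose in every TNFR2-/- culture, from 27.4, 33.7 and 18.8 RPM to 79.3, 102 and 64.7 RPM (log2 fold change 1.64 ± 0.23, adjusted p = 0.00042). Fosl1 increased from 52.1, 50.8 and 34.3 to 112, 102 and 92.7 RPM (1.18 ± 0.20, adjusted p = 0.0016) and Fosl2 from 156, 168 and 73.7 to 338, 350.2 and 292 RPM (1.38 ± 0.25, adjusted p = 0.00246). For both Fra genes the NS and St groups were well separated. Fosb stood apart again. It was at 11.5, 29.5 and 3.36 RPM in NS and 11.96, 19.6 and 5.71 RPM in St, groups that overlapped fully, with a log2 fold change of 0.07 ± 0.67 (adjusted p = 0.96). That sign is not stable: culture 4 was lower with cytokines and cultures 2 and 5 were not, and the value became -0.73 without TNFR2-/- NS replicate 5.

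Atf3 increased from 11.96, 10.7 and 6.49 RPM to 119, 115 and 177 RPM (log2 fold change 3.45 ± 0.22, adjusted p = 1.29e-06, and 3.83 ± 0.26 by voom). Here too library 5 was lowest without and highest with cytokines. Batf3 went from 1.46, 1.45 and 1.32 to 17.1, 14.6 and 14.1 RPM (2.07 ± 0.09, adjusted p = 9.99e-08; 3.42 ± 0.16 by voom). Batf2 had 0, 5 and 3 reads in NS and 51.9, 35.4 and 83.8 RPM in St libraries, a ratio of summed reads of 641 (exact 95% counting interval 325 to 1486). The spread of Batf2 among stimulated TNFR2-/- libraries (57.0 ± 24.6 RPM) was wider than among WT ones (37.4 ± 2.47).

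The third comparison set naïve OPCs labeled TNFR2-/- beside naïve WT OPCs, with no cytokines in either. Fosb, Fos and Jun were lower in the TNFR2-/- libraries and 0 members were higher, where 2.9% of all genes tested were called, 1.28% lower and 1.62% higher. The members' median log2 fold change was -0.54, against 0.04 over all genes. TNFR2-/- libraries lay below all WT libraries for 5 members (Fos, Fosb, Fosl2, Jun and Junb; 14.3% of all genes) and above them for none (19.9%).

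Fos was at 26.6 ± 7.498 RPM in TNFR2-/- and 62.2 ± 11.7 RPM in WT (SD, n = 3), a log2 fold change of -1.25 ± 0.23 (adjusted p = 0.0164). The highest TNFR2-/- library (33.7 RPM) was below the lowest WT library (48.7 RPM). Fosb was at 14.8 ± 13.4 against 64.7 ± 19.3 RPM (-2.55 ± 0.67, adjusted p = 0.0394), with TNFR2-/- values from 3.36 to 29.5 RPM. Jun was at 393 ± 155 against 766 ± 143 RPM (-1.01 ± 0.23, adjusted p = 0.0282), and its closest libraries were 566 RPM in TNFR2-/- and 617 RPM in WT. Junb differed by -0.75 ± 0.23 and did not pass (adjusted p = 0.0599), at 32.1 ± 11.6 against 51.9 ± 7.43 RPM, while voom, which called 3.45% of all genes, called it (adjusted p = 0.0409), as did the fit without TNFR2-/- NS replicate 4 and the filter at a mean of 1 FPKM (adjusted p = 0.048). Over all its alternatives the adjusted p of Junb ranged from 0.0215 to 0.178. Fosl2 was at 133 against 193 RPM (-0.62 ± 0.25, adjusted p = 0.125). Fosl1 (-0.35 ± 0.20), Atf3 (-0.45 ± 0.22) and Jund (-0.16 ± 0.11) overlapped between genotypes, as did Batf3 at 1.41 against 1.19 RPM and Batf2 at 0 to 5 reads in every library.

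These 3 calls rested on few libraries. In a fit of the 6 naïve libraries alone, 0 of the 3 passed (adjusted p from 0.0858 to 0.12), and each was lost when WT NS replicate 3 or 4 was left out, and also when TNFR2-/- NS replicate 5 was, the library with the lowest Fos, Fosb, Jun, Junb, Fosl1, Fosl2, Jund and Atf3. Jun was lost without TNFR2-/- NS replicate 2 as well, and Fosb without any one of 9 of the 12 libraries. Without both TNFR2-/- libraries numbered 5, the log2 fold change was -1.01 for Fos (adjusted p = 0.0331), -1.75 for Fosb (0.0585) and -0.77 for Jun (0.0753), so that Fos alone passed. Library 5 also had the highest astrocyte marker sum (3876 RPM in NS, against 2390 and 2650 in TNFR2-/- libraries 4 and 2) and the lowest sum of mural and fibroblast markers (109 RPM, against 263 to 542). The part of these cells in the result was not tested.

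The last comparison set stimulated OPCs labeled TNFR2-/- beside stimulated WT OPCs. No member was called by limma (0 of 10, against 1.18% of all genes tested called higher and 0.614% lower, 1.8% in all), and voom also called 0 (2.41% of all genes). Astrocyte markers summed to 2536 to 3953 RPM in TNFR2-/- St and 1602 to 1666 RPM in WT St, and their part in these values was not tested. The median log2 fold change of the members was 0.09, against -0.0034 over all genes. The members with the lowest p in limma were Jund, Atf3 and Fosb, and none of them passed after adjustment. Jund was at 94.9 RPM in TNFR2-/- and 129 RPM in WT, with no overlap between groups (82.4 to 108 against 116 to 136) and a log2 fold change of -0.44 ± 0.11 (adjusted p = 0.0516). The change was also below the fold change required for a call. It stayed below with voom (-0.45, adjusted p = 0.032) and with the replicate block (-0.33, adjusted p = 0.0137). Atf3 was higher, at 115 to 177 against 86.5 to 102 RPM (0.54 ± 0.22, adjusted p = 0.151), and was the only member whose TNFR2-/- libraries lay above all WT ones (15.4% of all genes did). Fosb was at 5.71 to 19.6 against 24.1 to 39.4 RPM (-1.53 ± 0.67, adjusted p = 0.177), and Fos at 64.7 to 102 against 104 to 122 RPM (-0.49 ± 0.23, adjusted p = 0.192). With Jund these made 3 members whose TNFR2-/- libraries lay below all WT libraries, as 17.3% of all genes did. Junb (226 against 217 RPM) and Fosl2 (327 against 299 RPM) overlapped. Batf2 was called without TNFR2-/- St replicate 4 (adjusted p = 0.0381).

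**Figure D3:**
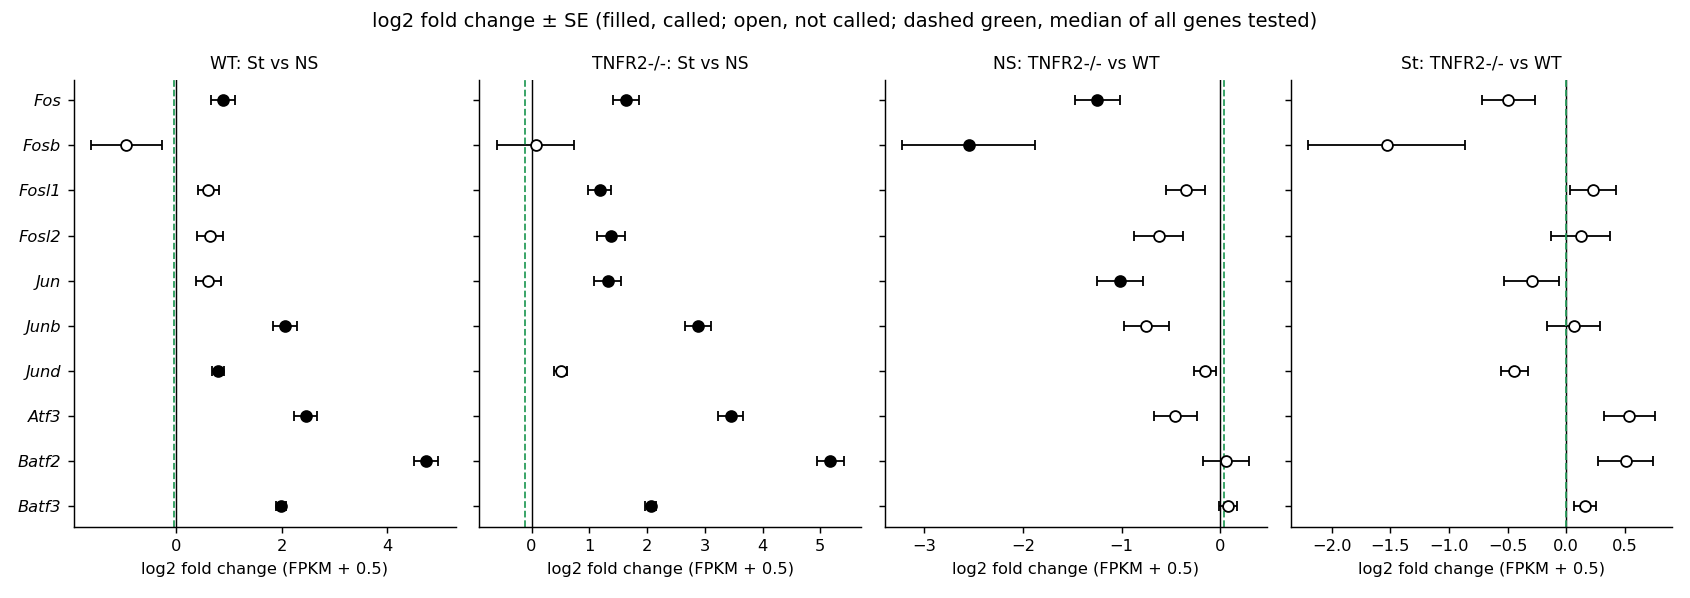
Points give the log2 fold change of each member ± SE on the log2(FPKM + 0.5) scale in 4 comparisons (horizontal axes differ), filled where called and open where not, with the median of all genes tested as a dashed line. Both responses to cytokines lie to the right of 0 for all genes but Fosb in WT, the naïve genotype comparison lies to the left for 8 of 10, and no stimulated genotype difference is filled.

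Whether the response to cytokines differed between genotypes was tested as an interaction. No member was called (0 of 10; 1 gene, or 0.00553%, was called over the whole table). The lowest adjusted p in limma were 0.512 (Atf3), 0.583 (Junb) and 0.605 (Fos), and voom called 0 as well (0% of all genes). The median interaction over the members was 0.73 on the log2 scale, against -0.05 over all genes, and it was above 0 for 9 of 10. Because TNFR2-/- NS and WT NS libraries enter both this term and the naïve comparison, the 2 are not independent. The naïve difference is subtracted in this term, so a lower naïve TNFR2-/- value raises it.

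Culture by culture, the ratio of St to NS in TNFR2-/- lay above that of every WT culture for 7 members, a pattern found in 9.87% of all genes tested. Fos rose 1.67 to 2.13 times in WT cultures and 2.90 to 3.45 times in TNFR2-/- cultures. Jun rose 1.37 to 1.71 and 1.90 to 3.22 times, and Junb 3.95 to 4.67 and 5.40 to 12.4 times. Atf3 followed with 5.39 to 8.29 times in WT and 9.99 to 27.3 times in TNFR2-/-. The other 3 were Fosb, Fosl1 and Fosl2, of which Fosb was at 0.474 to 0.569 times its NS level in WT and 0.664 to 1.70 times in TNFR2-/-. Jund showed the opposite order, 1.70 to 1.82 times in WT and 1.34 to 1.53 times in TNFR2-/-, as did 18.3% of all genes. Batf3 overlapped, at 9.40 to 14.3 and 10.1 to 11.7 times. Culture 5 set the top of the TNFR2-/- range for Junb and Atf3. Cultures 2 and 4 were at 6.08 and 5.40 times for Junb and 9.99 and 10.7 times for Atf3. The NS level is the denominator of each ratio. With cytokines, mean levels in TNFR2-/- were lower than in WT for Fos (82.1 against 114 RPM) and Jun (940 against 1151). They were higher for Junb (226 against 217) and Atf3 (137 against 91.8). Blocking by culture left the limma count at 0 (adjusted p for the 10 members from 0.0968 to 0.766), whereas voom on the recovered reads with the block, an alternative chosen after the data had been seen, called 6 (Atf3, Fos, Fosb, Fosl2, Jun and Junb) and 0.896% of all genes.

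**Figure D4:**
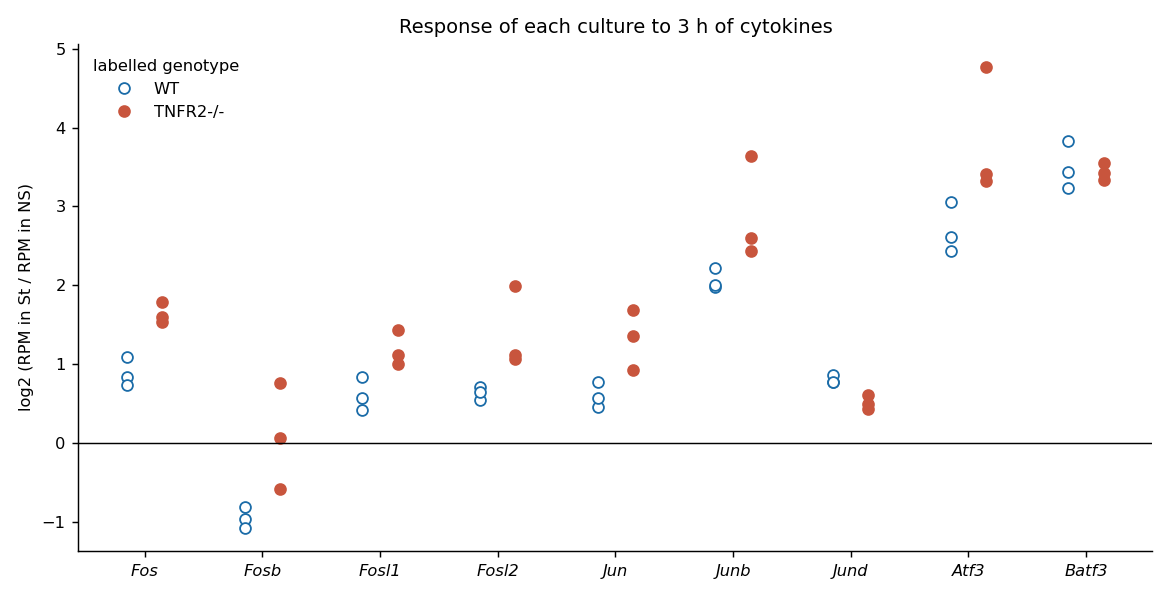
Each point is one culture, plotted as the log2 ratio of RPM in its St library to RPM in its NS library (open blue, WT; filled red, labeled TNFR2-/-; n = 3 each). Batf2 is left out because 2 of its NS libraries held 0 reads, and red lies above blue for every member shown except Jund, where it lies below, and Batf3, where they overlap.

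Genes that work with the AP-1 members were read from the same fits. Of the other bZIP factors, 21 of 22 were tested, with Batf, the third BATF gene, under 0.11 FPKM in every library. In WT, 6 rose and 0 fell with cytokines, led by Crem, a cyclic AMP responsive repressor (13.6 to 137 RPM, log2 fold change 3.32 ± 0.10, adjusted p = 7.43e-09), and including Cebpd (2.18 ± 0.18, adjusted p = 1.01e-05). In TNFR2-/- 7 rose and 0 fell, with Crem at 2.95 ± 0.10. Of all genes, 4.58% were called higher and 2.95% lower in WT, and 5.41% and 4.68% in TNFR2-/-. The list's median was 0.04 in WT and 0.08 in TNFR2-/-. Without cytokines Bach1, a bZIP repressor, was lower in TNFR2-/- (174 to 92.6 RPM, -0.94 ± 0.18, adjusted p = 0.0178), and Cebpb was higher (8.38 to 15.3 RPM, 0.72 ± 0.17, adjusted p = 0.0307). That was 1 of 21 in each direction, against 1.28% of all genes called lower and 1.62% higher.

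The MAP kinases that act on AP-1 proteins changed in both directions. Of 22 tested in WT, 2 rose and 1 fell (7.53% of all genes were called there): Map3k8, the kinase Tpl2 (2.14 ± 0.19, adjusted p = 2.07e-05), and Map2k3, which activates p38 (1.41 ± 0.13, adjusted p = 3.34e-05), against Map2k6 (-0.84 ± 0.18, adjusted p = 0.0102). In TNFR2-/- 4 rose and 3 fell, that is 7 of 22 against 10.1% of all genes, and Map3k8 rose by 2.72 on the log2 scale. The list's medians were -0.03 and -0.13. Rps6ka5, which encodes the nuclear kinase MSK1, was lower in TNFR2-/- than in WT without (-0.65 ± 0.14, adjusted p = 0.0212) and with cytokines (-0.59 ± 0.14, adjusted p = 0.04), as 1 of 22 in each. Of all genes, 2.9% and 1.8% were called in these comparisons.

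Of 16 transcription factors and coactivators that act at AP-1 genes, 5 rose in WT and 3 fell (Mef2c, Mkl2 and Srf). Irf1, the partner of Batf2, went from 7.55 to 1168 RPM (7.28 ± 0.13, adjusted p = 1.25e-10), and Irf8, a partner of BATF proteins, from 0.706 to 398 RPM (8.15 ± 0.14, adjusted p = 1.25e-10). Srf, the factor of the CArG box, decreased by a small amount, from 75.1 to 49.5 RPM (-0.60 ± 0.15, adjusted p = 0.0192). In TNFR2-/- 5 rose, Irf1 and Irf8 among them, and Mef2c and Mkl2 fell. Srf differed there by -0.56 ± 0.15 (adjusted p = 0.0176), just below the fold change required for a call. Of all genes, 4.58% were called higher and 2.95% lower in WT, and 5.41% and 4.68% in TNFR2-/-. Irf1 was higher in naïve TNFR2-/- than in naïve WT cells (11.8 against 7.55 RPM, 0.66 ± 0.13, adjusted p = 0.0188), 1 of 16 against 2.9% of all genes called.

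Of 20 genes widely described as AP-1 targets, 7 rose and 2 fell in WT, and 9 rose and 1 fell in TNFR2-/-, with medians of 0.69 and 1.14. Of all genes, 4.58% were called higher and 2.95% lower in WT, and 5.41% and 4.68% in TNFR2-/-. Lif, a cytokine of the IL6 family, went from 15.6 to 281 RPM in WT (4.07 ± 0.31, adjusted p = 6.07e-06) and from 12.8 to 449 RPM in TNFR2-/- (5.02 ± 0.31, adjusted p = 9.82e-07). Il6 reached 13.2 RPM in WT and 32.0 RPM in TNFR2-/- from under 0.05 RPM in both. Ccnd1, which encodes cyclin D1, fell in both genotypes (2511 to 1488 RPM in WT, -0.76 ± 0.16, adjusted p = 0.00705). Between genotypes, Hmox1 was higher in naïve TNFR2-/- cells (0.62 ± 0.13, adjusted p = 0.0224) and Cd44 in stimulated ones (427 against 235 RPM, 0.83 ± 0.16, adjusted p = 0.0227), 1 of 20 in each comparison. Of all genes, 2.9% and 1.8% were called in these comparisons.

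The remaining immediate early genes gave a divided picture with cytokines and a one-sided one without. In WT, 5 of 20 rose and 5 fell (4.58% and 2.95% of all genes). Zfp36, which destabilizes cytokine mRNAs, increased from 14.8 to 199 RPM (3.76 ± 0.24, adjusted p = 1.34e-06) and Ier3 from 14.3 to 118 RPM (2.98 ± 0.21, adjusted p = 3.86e-06), while the nuclear receptor gene Nr4a1 fell from 93.3 to 29.1 RPM (-1.67 ± 0.25, adjusted p = 0.000979) and Arc from 32.9 to 13.6 RPM (-1.26 ± 0.27, adjusted p = 0.0083). In TNFR2-/- 9 rose and 3 fell (5.41% and 4.68% of all genes). In naïve cells 6 of 20 were lower in TNFR2-/- (Dusp1, Egr2, Nr4a2, Egr1, Ier2 and Klf6) and 0 higher, against 1.28% and 1.62% of all genes. In a fit of the 6 naïve libraries alone, 7 genes of the whole table were called higher and 0 lower. None of these 6, nor Bach1 or Rps6ka5 above, passed there. Without WT NS replicate 3 or 4, 10 and 16 genes of the whole table were called lower, in place of 231. Called higher were 39 and 38, in place of 293. Whether Irf1, Cebpb and Hmox1, higher in naïve TNFR2-/- cells above, still passed in these fits is not given here. The stimulated comparison, which called Cd44, had 47 calls in a fit of its 6 libraries, in place of 325. Dusp1, a phosphatase of MAP kinases, was at 17.3 against 46.6 RPM (-1.46 ± 0.34, adjusted p = 0.0279) and Egr2 at 19.8 against 47.3 RPM (-1.35 ± 0.33, adjusted p = 0.0315). The list's median in that comparison was -0.69, against 0.04 over all genes, and 18 of 20 were below 0.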

How the data were processed

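RNA of 12 libraries (4 groups of 3) was analyzed from 2 tables of FPKM, 1 for NS and 1 for St libraries. The members and the gene lists were chosen with earlier results of these data known. Per the labels and methods, adapters were removed by the authors with Trim Galore, the reads were mapped to GRCm38 and counted per Ensembl gene with STAR, and edgeR gave the authors' own calls. The deposited FPKM are those counts per 1000000 library reads, divided by a number of bases per gene. That divisor is not the gene's length (80 for Fos, 6246 for Atf3), so levels of different members are not compared in FPKM here. The FPKM cut-offs and the pseudocount were still the same for all genes. They therefore stand for different read numbers from gene to gene. Both tables use one divisor per gene, and each library is scaled by its own total. Symbols used by several entries (99 symbols, 229 of 45792 entries per table) were left out.

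Whole reads were recovered from the steps of the values (26636 of 26636 genes above 0 in at least 2 libraries, within 0.01 of a read), which gave totals of 26886878 to 30335265 read pairs and levels in RPM. Exon lengths for RPM per kb came from GENCODE M21. The depth limits low genes: 1 read was about 0.033 RPM, and intervals cover counting error only. log2(FPKM + 0.5) was fitted in limma 3.58.1 (R 4.3.3), with a mean for each of the 4 groups and trended empirical Bayes, for the 18081 genes averaging 0.1 FPKM or more. A call needed an adjusted p (Benjamini-Hochberg, all genes tested) no greater than 0.05, a change of 1.5-fold or more and 1 FPKM or more on average. The steps were tested on simulated data. Alternatives changed the pseudocount, filter, scaling, trend, samples fitted, replicate block, one library at a time, and voom on the recovered reads. Named genes outside the family were up to 3 called genes per direction of each list with the largest log2 fold change, plus the 3 genes nearest to each member in pattern. Per-gene tables used Python 3.11.15, pandas 2.3.3 and numpy 2.4.6, and figures matplotlib 3.10.9. Sequences came from RefSeq promoter windows.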

Additional observations from a re-analysis of the deposited data

How the results depend on the processing

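Of the log2 fold changes of single members under all alternatives, 1106 kept their direction and their side of the threshold, 29 newly passed, 26 no longer passed and 9 changed sign. With one library left out, the number of members called was 5 to 8 (WT St vs WT NS), 8 to 9 (TNFR2-/- St vs TNFR2-/- NS), 0 to 4 (TNFR2-/- NS vs WT NS), 0 to 1 (TNFR2-/- St vs WT St) and 0 (interaction). With the replicate block, 10 members were called in WT St vs WT NS in place of 6, and the pairing changed no other count of members. The same block with voom, added after seeing the data, called 10 there and 6 for the interaction. For TNFR2-/- NS vs WT NS the count of 3 became 1 with no filter on low genes, 0 in the fit of the 6 libraries compared and 1 without both TNFR2-/- libraries numbered 5 (added after seeing the data). Numbers shared between genotypes were also used as a block for the genotype comparisons, where they are only numbers, and gave 437 and 433 calls over all genes in place of 524 and 325. The 9 changes of sign were in log2 fold changes of 0.06 to 0.45, some of which became larger in size under the alternative. Fosb in TNFR2-/- St vs TNFR2-/- NS (0.07) became -0.73 without TNFR2-/- NS replicate 5, -0.34 without TNFR2-/- St replicate 4, -0.26 without both libraries numbered 5 (range with one library left out -0.73 to 0.81) and -0.21 with voom and the replicate block. Batf2 in TNFR2-/- NS vs WT NS (0.06) became -0.0915 with the replicate block. The interaction of Batf2 (0.45) became -0.44 with voom and -0.68 with voom and the block, and that of Batf3 (0.08) became -0.0637 and -0.0542. The cause was not tested. Over all genes, the naïve genotype comparison gave 524 calls, 7 in the fit of 6 libraries, 268 with no filter, 1848 by adjusted p alone and 49 to 952 with one library left out, and the stimulated one 325, 47, 166, 893 and 39 to 464. With one library left out, 1203 to 1430 genes were called in WT St vs WT NS and 1694 to 1871 in TNFR2-/- St vs TNFR2-/- NS. Adjusted p alone gave 2626 calls in place of 1361 in WT and 4235 in place of 1824 in TNFR2-/-. The interaction had 1 call, 0 with voom, 162 with voom and the block, and 1 to 2 with one library left out. Depth limits Batf2 without cytokines, at 0 to 5 reads per library.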

Other observations

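Genes whose pattern over the 12 libraries was most like that of a member were found by the mean absolute difference between centered log2(FPKM + 0.5) profiles among 13554 genes, as a description with no test. Spsb1, an adaptor of ubiquitin ligases, was the nearest gene to both Jun (0.12 on the log2 scale) and Fosl2 (0.13), and Foxp1 was among the 3 nearest to both Fos (0.15) and Jun (0.14). Within the family, Fosl1 and Fosl2 were each other's nearest member (0.16), as were Fos and Jun (0.19) and Junb and Atf3 (0.28). Junb was nearest to Cldn1 (0.20), followed by the nuclear lamina gene Lmna (0.22) and the immediate early gene Egr2 (0.22). Atf3 was nearest to Mdga1 (0.15), with Irf7 and the NF-κB inhibitor gene Nfkbia (0.18 each) next.

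Batf3 was nearest to B2m (0.073), the light chain of MHC class I, which went from 91.5 to 364 RPM in WT and from 97.5 to 411 RPM in TNFR2-/-, then to the chemokine gene Cx3cl1 (0.087) and to Zfp36l1 (0.12). In RPM, Batf3 rose more steeply than B2m, from 1.19 to 13.3 in WT and from 1.41 to 15.3 in TNFR2-/-. Its FPKM without cytokines lie near the pseudocount, which understates its rise on the scale compared. Nearness to Batf3 here therefore does not show a rise of the same size. Batf2, whose rise is bounded by the pseudocount, was nearest to Apol10b (0.14), Tlr2 (0.20) and Rtp4 (0.21), with the same limit. Fosb had no close companion: its nearest gene, Cd79a, differed by 0.34 and its nearest family member, Jun, by 0.92. Jund varied too little over the libraries to be compared in this way.

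Of the nearest protein-coding neighbors on the chromosome that were tested, only Hook2 was called in either response to cytokines. It lies 11884 bases from Junb and was higher in WT St than in WT NS by 0.78 on the log2 scale (limma adjusted p = 0.000578), but differed by 0.16 in TNFR2-/- (adjusted p = 0.306), where Junb rose as well. Fos has Jdp2, a repressor of AP-1, as its neighbor at 121753 bases, and Jdp2 differed by -0.15 in WT (adjusted p = 0.272) and by -0.33 in TNFR2-/- (adjusted p = 0.0145, below the fold change required for a call).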
